A study of Rattus norvegicus with 5 samples.

Results

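The glutathione transferases were examined through 10 genes of the superfamily in small intestinal tissue from male Wistar rats under mild to moderate calorie restriction (CR): *Gsta1* and *Gsta4* of the alpha class, *Gstm1*, *Gstm2* and *Gstm4* of the mu class, *Gstp1* of the pi class, *Gstt1* of the theta class, *Gstk1* of the kappa class, and the microsomal *Mgst1* and *Mgst2*. Every probe set of the Affymetrix rat 230A array whose annotated gene names include one of them was taken, which gave 10 probe sets, 1 for each gene, of 15866 probe sets for 10959 named genes. Rats of 6 weeks of age received 5, 10, 20 or 30% less food than a recorded free intake for 1 month, and the control rats received that intake in full. All groups ate the same purified diet and were dissected after a 16 h fast. RNA of 5 rats was pooled for each group and the pool was hybridized to 1 array, so that no CR level has a replicate and the rats of a pool cannot be told apart. In the comparison with the control, the control pool adds no spread, and a p-value rests on the spread among the CR pools, which differ in restriction. In the trend, it rests on the spread of all 5 pools around a line. In both, this spread is combined with the spread typical of other probe sets of similar signal. In whole tissue, fewer cells of a type and less RNA per cell cannot be told apart either.

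Glutathione transferases join the tripeptide glutathione to reactive, electrophilic compounds, which makes these more soluble and marks them for export, and several members also reduce lipid peroxides. The cytosolic alpha, mu, pi and theta enzymes are related dimers. The kappa enzyme is found in mitochondria and peroxisomes, and the microsomal enzymes belong to a separate family of membrane proteins. In the gut, they act on food-borne and bile-borne compounds before these enter the blood.

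The authors had scaled the MAS5 signals so that every array has a trimmed mean of 132. Array medians were 44.9 to 49, and pairs of arrays correlated at 0.971 to 0.988 in log2 signal. The 3′ to 5′ signal ratio, which increases as RNA degrades, did not order the arrays alike for both control genes. For beta-actin it was 3.18 at 20% CR and 2.20 to 2.41 on the other arrays, and for *Gapdh* it was 1.27 at 20% CR and 1.21 to 1.40 on the others. Of 11 enterocyte markers, 9 were measured, and their summed signal was 16295 to 23468 in the CR pools (highest at 20% CR) and 14992 in the control pool, with a median log2 ratio of 0.64 at 20% CR and −0.12 to 0.077 at the other levels. Markers of the proximal intestine (5 of 6 measured) were bright, with sums of 7099 to 8159 in the CR pools and 5961 in the control pool. Their median log2 ratio was only −0.018 to 0.049 over the CR levels, and *Fabp1* belongs to both this list and the enterocyte list. The 4 measured markers of the distal intestine of 6 listed summed to only 52.9 to 57.1 in the CR pools and 40.5 in the control pool. The exocrine pancreas list (6 of 6 measured, all weak) summed to 45.3 to 152 in the CR pools and 431 in the control pool, with *Cel*, *Amy2a3* and *Ctrb1* at a signal of 1 or less on at least 1 array. Of 6 smooth muscle markers, all measured, the sum was 7390 to 10336 in the CR pools and 9352 in the control pool, and the 5 Paneth cell markers summed to 3159 to 5065 (highest at 10% CR) in the CR pools and 2930 in the control pool. Liver-type genes, which enterocytes partly share, summed to 896 to 1782 (highest at 20% CR) in the CR pools and 1075 in the control pool. The part of these shifts in the results below was not tested.

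The promoters of 3 members are shown because *Gsta1* and *Gstm1* had the largest ratios of the 9 tested members in opposite directions, and because *Gstp1* holds a match to the antioxidant response element upstream of its start. RefSeq (rat build GRCr8) gives a window of 300 bases, from 250 before to 50 after the annotated start, for 8 of the 10 members. Capitals mark the antioxidant response element core (TGACNNNGC, bound by Nrf2), the AP-1 site (TGACTCA) that can overlap it, the xenobiotic response element core (GCGTG, bound by the aryl hydrocarbon receptor), all on both strands, and the TATA box (TATAAA, coding strand).
Gsta1, chr9:31216483-31216782, minus strand: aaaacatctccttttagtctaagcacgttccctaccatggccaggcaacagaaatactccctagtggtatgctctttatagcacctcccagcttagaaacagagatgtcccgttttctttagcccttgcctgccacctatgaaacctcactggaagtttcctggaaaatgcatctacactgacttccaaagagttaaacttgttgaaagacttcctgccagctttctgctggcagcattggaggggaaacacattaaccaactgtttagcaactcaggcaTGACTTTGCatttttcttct
Gstp1, chr1:210769656-210769955, minus strand: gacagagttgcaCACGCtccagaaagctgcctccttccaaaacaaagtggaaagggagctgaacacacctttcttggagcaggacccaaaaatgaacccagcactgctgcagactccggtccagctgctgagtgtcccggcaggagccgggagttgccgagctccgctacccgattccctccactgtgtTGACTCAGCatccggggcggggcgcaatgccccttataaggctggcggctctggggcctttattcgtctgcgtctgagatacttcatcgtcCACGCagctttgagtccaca
Gstm1, chr2:198343334-198343633, minus strand: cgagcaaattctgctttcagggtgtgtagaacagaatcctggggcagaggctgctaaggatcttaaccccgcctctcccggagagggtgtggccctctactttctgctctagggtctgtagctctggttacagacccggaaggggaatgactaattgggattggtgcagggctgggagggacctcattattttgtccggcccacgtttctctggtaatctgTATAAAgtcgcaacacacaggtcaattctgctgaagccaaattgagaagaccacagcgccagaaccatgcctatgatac
In *Gsta1* the antioxidant element match begins 30 bases after the start, and in *Gstp1* it begins 61 bases before the start, where it contains the AP-1 letters. The *Gstm1* window holds the TATA box, 29 bases before the start, and no match to the other 3 motifs. The antioxidant element core was present in 2 of 8 member windows and in 12.1% of 33469 rat promoter windows of this length. The xenobiotic element core was in 3 of 8 (*Gstp1*, *Gstm4* and *Gsta4*) and 29.7% of all windows, the AP-1 site in 1 of 8 and 4.63%, and the TATA box in 1 of 8 and 8.80%. Of the other measured superfamily genes, *Gsta3*, *Gstm5*, *Gstm7*, *Gsta2* and *Gstz1* also hold the antioxidant element core. Their mean log2 ratios of the CR pools to the control pool were −0.34, −0.14, −0.10, −0.042 (probe set shared with *Gsta5*) and 0.16. *Mgst1*, with a mean of 0.22, holds no match to it. Whether a match bears on a ratio was not tested. A match is a string of letters and not a measured binding site.

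Among the members, *Gsta1* had the highest mean ratio to the control pool and *Gstm1* the lowest of the 9 that could be tested, and neither passed the test over all probe sets. *Gsta1*, *Gstp1* and *Mgst1* lay above the control on all 4 CR arrays, and *Gstm1*, *Gstm4* and the very weak *Gstt1* lay below it on all 4. Of all probe sets bright enough to be tested, 19% lay above the control on all 4 and 20.6% below it. The test took the brighter part of the array, from its median upwards (5.54 in mean log2 signal, which corresponds to a signal of 46.5). All members but *Gstt1* were kept. No member passed limma in the comparison of the 4 CR pools with the control pool (0 of 9 at an adjusted p of 0.05, against 0% of 7933 probe sets), and 2 of them, *Gsta1* and *Gstm1*, had an unadjusted p below 0.05. Over all probe sets, 215 higher and 163 lower ones (4.76%) had an unadjusted p below 0.05. In the linear trend over the restriction percent, also 0 of 9 members and 0% of all probe sets passed, and *Gsta1* alone of the members had an unadjusted p below 0.05, against 123 higher and 122 lower probe sets (3.09% of all). All ratios share the single control array.

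**Figure D1:**
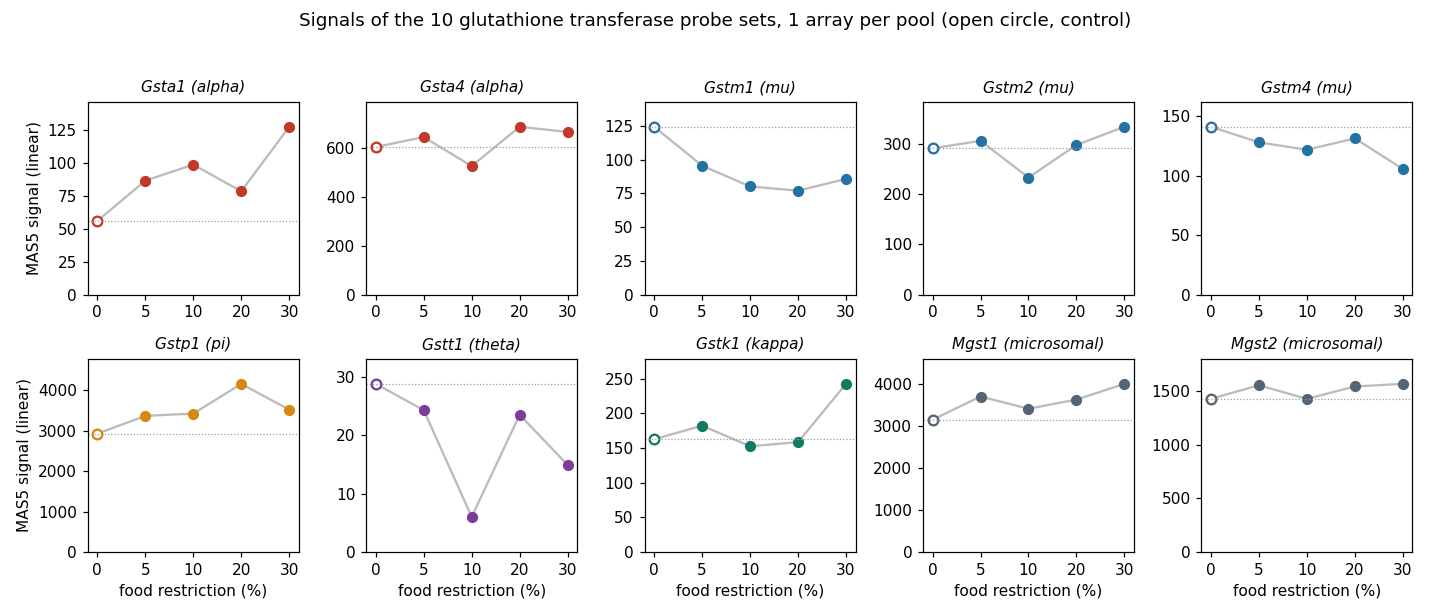
MAS5 signal (linear scale, from 0) of the 10 member probe sets against food restriction in percent (levels evenly spaced), with 1 point per array of 1 pool of 5 rats; the open circle and the dotted line mark the control array. *Gsta1*, *Gstp1* and *Mgst1* lie above the control line at every level, *Gstm1*, *Gstm4* and *Gstt1* below it, and *Gstt1* falls short of the signal of 46.5 used as filter on every array. Of all kept probe sets, 19% lie above the control at every level and 20.6% below it.

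*Gsta1*, an alpha class enzyme that conjugates many electrophiles and reduces organic peroxides, had a signal of 56.1 on the control array and of 86.7, 98.8, 78.6 and 127.6 on the 5, 10, 20 and 30% CR arrays. Every CR array was above the control, with the 30% CR array highest and the 20% CR array nearest to the control. These signals correspond to 1.55, 1.76, 1.40 and 2.27 times the control. The mean log2 ratio was 0.78 ± 0.27 (standard error, 4 CR pools against 1 control pool, 95% interval 0.17 to 1.38, limma adjusted p = 0.974), the 51st highest of 7933 probe sets. Its slope was 0.28 ± 0.11 in log2 signal per 10% restriction (95% interval 0.042 to 0.51, limma adjusted p = 0.998). The slope depended on the ends of the range, with 0.19 without the 30% CR pool and 0.16 without the control pool. The control signal lay close to the filter of 46.5. By its own change calls, the study listed this probe set as up-regulated at all CR levels, and in its ratios 5% CR was nearest to the control. RefSeq lists *Gsta3*, *Gsta5* and Yc1 among the other names of this rat gene, so that these alpha symbols overlap between genes. The array annotation used here gives the probe set to *Gsta1* alone, but that in the study also assigns it to a further gene described as similar to an alpha enzyme, so its signal may come from more than a single gene.

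The other alpha member did not share this pattern. *Gsta4*, which prefers the lipid peroxidation product 4-hydroxynonenal, had signals of 603, 643.6, 525.1, 685.5 and 664.4 on the control, 5, 10, 20 and 30% CR arrays. It lay above the control at 3 levels and below it at 10% CR. The mean log2 ratio was 0.05 ± 0.17 (95% interval −0.32 to 0.43, adjusted p = 0.995), and its slope 0.061 ± 0.060 per 10% restriction.

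*Gstm1*, a mu class enzyme that conjugates epoxides and quinones, had signals of 124.4, 95.6, 80.2, 77.1 and 85.8 on the control, 5, 10, 20 and 30% CR arrays. The control array was the highest of the 5, and the CR arrays from 10 to 30% lay close together. The CR signals were 0.768, 0.645, 0.620 and 0.690 of the control. The mean log2 ratio was −0.56 ± 0.21 (95% interval −1.03 to −0.090, limma adjusted p = 0.974), the 101st lowest of 7933. The slope was −0.16 ± 0.092 per 10% restriction (adjusted p = 0.998), with −0.33 without the 30% CR pool and −0.047 without the control pool, so that most of the difference lay between the control array and all CR arrays.

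The remaining mu members were closer to the control. *Gstm4* had 141.3, 128.2, 122, 131.5 and 105.8 on the control, 5, 10, 20 and 30% CR arrays, below the control at every level and lowest at 30% CR (mean log2 ratio −0.22 ± 0.19, 95% interval −0.65 to 0.22, adjusted p = 0.988). *Gstm2* had 290.7, 305.6, 232.8, 297.4 and 333.5, above the control at 3 levels and below it at 10% CR. Its mean log2 ratio of −0.0043 ± 0.20 had no stable sign, being 0.013 after quantile normalization and 0.10 without the 10% CR pool.

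*Gstp1*, the pi class enzyme, which also binds stress kinases, was bright on every array, with 2929, 3371, 3426, 4164 and 3523 on the control, 5, 10, 20 and 30% CR arrays. All CR arrays were above the control, with the highest signal at 20% CR, where the enterocyte markers were also highest. The log2 ratios were 0.20, 0.23, 0.51 and 0.27, with a mean of 0.30 ± 0.15 (95% interval −0.037 to 0.64, limma adjusted p = 0.988). After quantile normalization the ratio at 20% CR was 0.28 and the mean 0.23, and without the 20% CR pool the mean was also 0.23. Its slope of 0.10 ± 0.058 per 10% restriction was 0.24 without the 30% CR pool and 0.051 without the control pool.

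*Mgst1*, a membrane enzyme of the endoplasmic reticulum and the outer mitochondrial membrane that conjugates and also reduces lipid peroxides, had 3154, 3708, 3416, 3634 and 4010 on the control, 5, 10, 20 and 30% CR arrays. The control was the lowest and the 30% CR array the highest. The mean log2 ratio was 0.22 ± 0.14 (95% interval −0.081 to 0.53, limma adjusted p = 0.988), with an SD over the 4 levels of 0.095. At 20% CR the ratio was 0.20 as deposited and 0.036 after quantile normalization. *Mgst2*, which can also make leukotriene C4, had 1430, 1557, 1429, 1545 and 1570. Its 10% CR array was level with the control and the other CR arrays slightly above (mean log2 ratio 0.092 ± 0.13, 95% interval −0.19 to 0.38, adjusted p = 0.988).

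*Gstk1*, the kappa enzyme, had 162.6, 182.2, 152.5, 158.5 and 242.6 on the control, 5, 10, 20 and 30% CR arrays. Only the 30% CR array stood clearly above the others, at 1.49 times the control, and 2 CR arrays lay below the control. The mean log2 ratio was 0.15 ± 0.25 (95% interval −0.40 to 0.70, adjusted p = 0.988), and 0.012 without the 30% CR pool. The slope of 0.15 ± 0.081 per 10% restriction turned to −0.052 without that pool. *Gstt1*, a theta enzyme that acts on small halogenated compounds, gave only 28.8, 24.3, 6, 23.5 and 14.9 and was not tested. Every CR signal was below that of the control, and all 5 were below the filter.

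By size, 0 of the 9 kept members differed from the control by 0.5 or more in log2 ratio, with 1 sign throughout, at the 4 CR levels, against 0.769% of all kept probe sets that were higher and 0.34% that were lower by this rule. *Gsta1* missed it at 20% CR, where its ratio was 0.49 as deposited. After quantile normalization or median centring that ratio was 0.55, and *Gsta1* then met the rule. *Gstm1* missed it at 5% CR (−0.38). Counted without a size limit, 3 of 9 members lay above the control at all 4 levels, against 19% of all kept probe sets, and 2 of 9 lay below it, against 20.6%. At single levels, members past 0.5 were *Gsta1* at 5% CR (1 of 9 higher, against 5.62% of all; 0 lower, against 3.84%), and *Gsta1* and *Gstm1* at 10% CR (1 higher, against 4.73%, and 1 lower, against 3.45%). At 20% CR they were *Gstp1* and *Gstm1* (1 higher, against 3.95%, and 1 lower, against 6.15%), and at 30% CR *Gsta1*, *Gstk1* and *Gstm1* (2 higher, against 7.51%, and 1 lower, against 5.61%). With so few members, a single gene moves these shares. The median log2 ratio of the 9 members was 0.12, −0.093, 0.11 and 0.20 at 5, 10, 20 and 30% CR, and that of all kept probe sets lay between −0.030 and 0.0059.

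**Figure D2:**
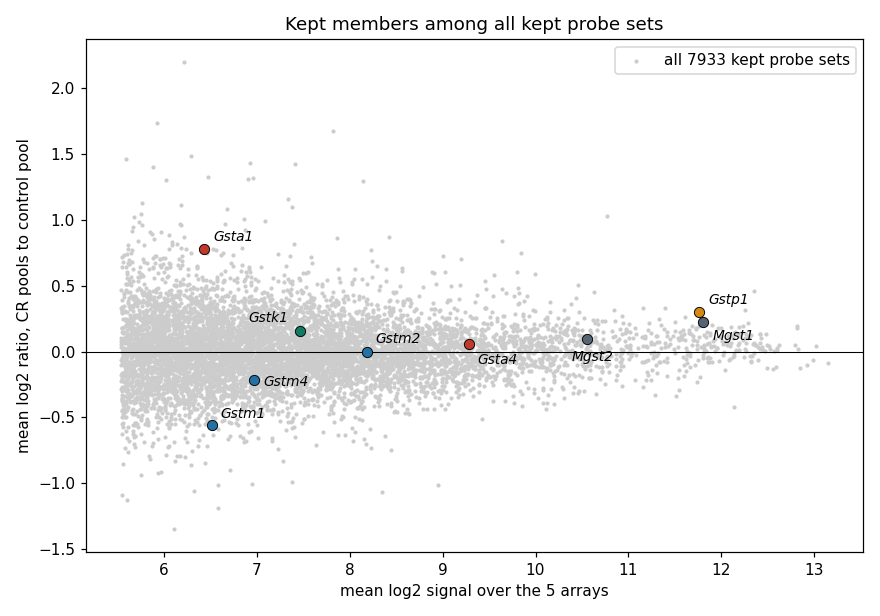
Mean log2 ratio (4 CR pools over the control pool) against the mean log2 signal over the 5 arrays for all 7933 kept probe sets (grey) and the 9 kept members (coloured by class). *Gsta1* (0.78) and *Gstm1* (−0.56) lie near the upper and lower edges of the grey cloud, which is wide at their signal, and *Gstp1* (0.30) and *Mgst1* (0.22) lie in its narrow, bright part.

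Counted by array, the 10% CR array was the lowest of the 5 for 4 of the 9 kept members (*Gsta4*, *Gstm2*, *Gstk1* and *Mgst2*), against 16.7% of all kept probe sets, and also for the weak *Gstt1*. For *Mgst2* this array was level with the control (1429.4 and 1430.1). After quantile normalization its 20% CR array was the lowest (log2 ratio −0.0041, against −0.0012 at 10% CR). The 30% CR array was the highest for 5 of the 9, against 22.6% of all. The control array was the lowest for 3 and the highest for 2 of the 9, against 19.1% and 20.7% of all. These counts are a description of few genes and were not tested. The Paneth cell markers, with a median log2 ratio of 0.93 at 10% CR over 3 kept genes, also stood apart on the 10% CR array, and whether that bears on the low values there was not tested.

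The alpha class lay above the other classes in the mean, and 1 gene carried this. Over the 2 alpha members, the mean log2 ratio was 0.36, 0.31, 0.34 and 0.66 at 5, 10, 20 and 30% CR. Over the 7 kept members of the mu, pi, kappa and microsomal classes it was 0.039, −0.13, 0.0037 and 0.081. The difference between alpha and the other classes was 0.42 in the mean of the levels (SD over the levels 0.12), and 0.057 with *Gsta4* as the only alpha gene. No test of this difference was made. By class, the 3 mu members had a mean of −0.26 and the 2 microsomal members 0.16, beside 0.30 for *Gstp1* and 0.15 for *Gstk1*. The theta class had no kept member.

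**Figure D3:**
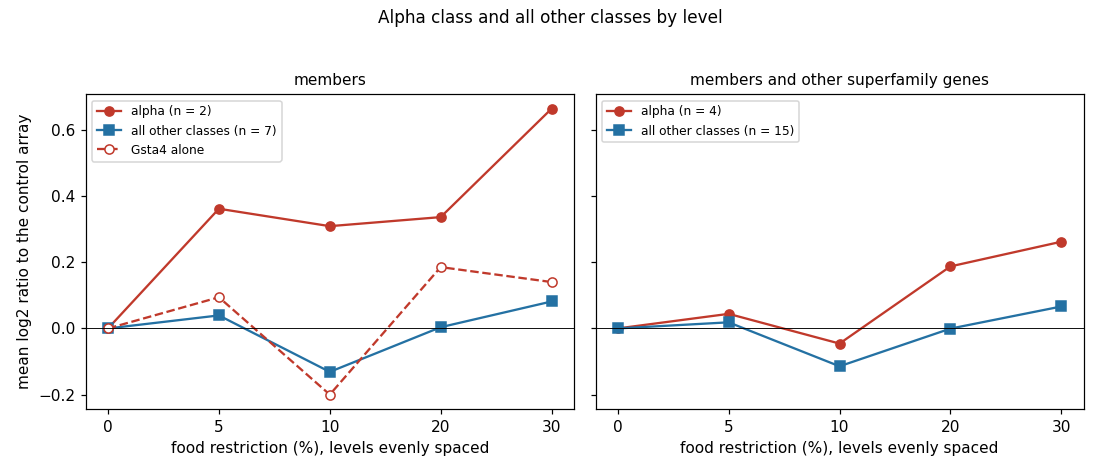
Mean log2 ratio to the control array for the alpha class (red) and all other classes (blue) against food restriction in percent, for the kept members (left) and for these with the other kept superfamily genes (right); the control is 0 by definition and each point is 1 array. The dashed line shows *Gsta4*, which stays between −0.20 and 0.18 while the alpha mean reaches 0.66 at 30% CR; with 4 alpha probe sets the alpha mean is 0.26 there.

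The other genes of the superfamily widen this view. Of 21 listed genes, 15 were on the array and 14 probe sets were kept, and 0 passed limma in the comparison or in the trend. The mean ratio was above 0 for 5 and below 0 for 9, against 49.1% of all kept probe sets above 0. At all 4 levels, 3 lay above and 4 below the control, against 19% and 20.6% of all kept probe sets. *Gsta3*, a further alpha gene, had 693.8, 537.9, 473.8, 556.1 and 628.7 on the control, 5, 10, 20 and 30% CR arrays, all CR signals being below the control (mean log2 ratio −0.34 ± 0.17, limma adjusted p = 0.988). *Gsta1* and *Gsta3* are the measured superfamily genes on chromosome 9 in RefSeq, and their mean ratios had opposite signs. The probe set shared by *Gsta5* and *Gsta2*, which cannot tell these genes apart, had 3142, 2776, 2644, 4135 and 2857, above the control at 20% CR only. With these 4 alpha probe sets against 15 of the other classes, the related eicosanoid enzymes being left out, the difference between alpha and the rest was 0.12 in the mean of the levels (SD 0.085). *Gsta1* carried this difference too. Its mean ratio was 0.78, and those of *Gsta4*, *Gsta5*/*Gsta2* and *Gsta3* were 0.055, −0.042 and −0.34, beside −0.0075 over the other classes.

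The 6 measured mu genes lie on chromosome 2 in RefSeq, in the order *Gstm5*, *Gstm7*, *Gstm3*, *Gstm2*, *Gstm1* and *Gstm4*. Their mean log2 ratios in that order were −0.14, −0.10, 0.067, −0.0043, −0.56 and −0.22. The lowest values thus belonged to the last 2 of the row, and the other 4 were within 0.14 of the control. The standard errors were 0.19 to 0.27, and differences between these genes were not tested. Sequences within a class are alike, and how far a probe set also detects a paralog was not tested.

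The theta genes *Gstt2* (173.2, 168.2, 138.2, 132.3 and 148.7 on the control, 5, 10, 20 and 30% CR arrays) and *Gstt3* (221.5, 212, 208.1, 185.2 and 205.2) were below the control at all 4 levels, with mean log2 ratios of −0.24 ± 0.19 and −0.13 ± 0.16. Neither passed (limma adjusted p = 0.988 for each), and 20.6% of all kept probe sets likewise lay below the control at all 4 levels. *Gsto1*, an omega enzyme that reduces dehydroascorbate, had 1240, 1399, 1397, 1383 and 1593 (0.22 ± 0.14). *Gstz1*, which isomerizes maleylacetoacetate in tyrosine breakdown, had a mean ratio of 0.16 ± 0.24. Both lay above the control at every level, and so did the microsomal *Mgst3* (0.068 ± 0.13). Of all kept probe sets, 19% likewise lay above the control at all 4 levels. *Ltc4s*, the leukotriene C4 synthase of mast cells and macrophages, had −0.23 ± 0.25.

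**Figure D4:**
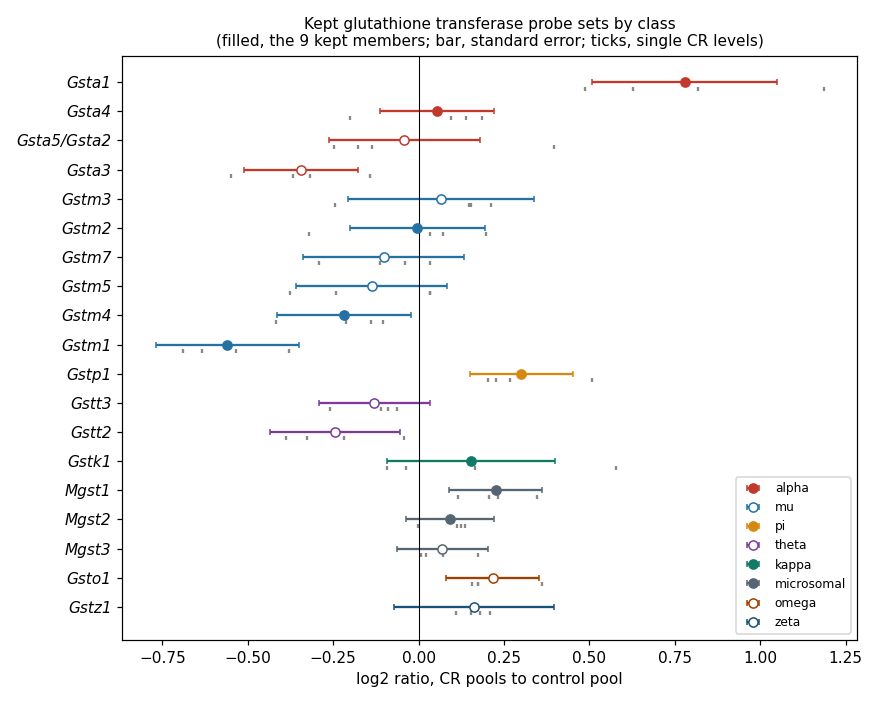
Mean log2 ratio (CR pools over control pool) with its standard error for the 19 kept glutathione transferase probe sets, grouped by class; filled points are members, open points other genes, and grey ticks the 4 CR levels. *Gsta1* (0.78) and *Gsta3* (−0.34) mark the ends of the alpha class, and *Gstm1* (−0.56) the low end of the mu class.

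Enzymes that make, use and recycle glutathione lay on both sides of the control. Of 31 listed genes, 26 were on the array and 19 were kept; the mean ratio was above 0 for 13 and below 0 for 6, against 49.1% of all kept probe sets above 0, and 0 passed limma in either fit. At all 4 levels, 6 lay above and 2 below the control, against 19% and 20.6% of all kept probe sets. The median of their mean log2 ratios was 0.11, and that of all kept probe sets −0.0057. *Dpep1*, a brush border dipeptidase that cleaves cysteinylglycine, had 143.8, 228.9, 218.7, 331.5 and 282 on the control, 5, 10, 20 and 30% CR arrays. It was the only gene of the list past 0.5 at every level (0.86 ± 0.23, limma adjusted p = 0.756). Of all kept probe sets, 0.769% were higher by this rule. *Ggt1*, which begins the breakdown of extracellular glutathione, had 0.75, 0.49, 0.90 and 0.012 at 5, 10, 20 and 30% CR, level with the control at 30%. *Gclc*, the catalytic subunit of the rate-limiting enzyme of glutathione synthesis, had a mean of 0.33 ± 0.20 and its highest ratio, 0.57, at 20% CR, and the glyoxalase *Glo1* had 0.33 ± 0.15. *Dpep1*, *Ggt1* and *Gclc* had their highest ratios on the 20% CR array, as the enterocyte markers did, but *Glo1* had its lowest there (0.16). The median ratio over the list was 0.081, 0.13, 0.16 and 0.078 at 5, 10, 20 and 30% CR. Of all kept probe sets, 21.2% were highest on the 20% CR array. A link to the enterocyte markers was not tested.

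Genes known as targets of Nrf2, the factor that induces many glutathione transferases through the antioxidant element, went both ways. Of 23 listed genes, 17 were on the array and 14 were kept, and 0 passed limma in either fit. The mean ratio was positive for 7, against 49.1% of all kept probe sets, and negative for 7. At all 4 levels, 3 lay above and 5 below the control, against 19% and 20.6% of all kept probe sets. The list shares *Gclc* and other genes with the preceding one. *Ephx1*, an epoxide hydrolase, had 165.9, 244.1, 237.8, 303.4 and 242.4 on the control, 5, 10, 20 and 30% CR arrays (0.62 ± 0.18, adjusted p = 0.861). *Hmox1*, a heme oxygenase, had 90.8, 50.4, 54.7, 49 and 37.2 and was lowest at 30% CR (−0.94 ± 0.27, adjusted p = 0.861). Of this list, only *Ephx1* (higher) and *Hmox1* (lower) were past 0.5 at every level, against 0.769% and 0.34% of all kept probe sets. *Akr7a3*, an aldehyde reductase, had a mean of −0.27 ± 0.18. The median of the 14 mean ratios was −0.061.

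The genes most like *Gsta1* were sought among the other 6898 kept probe sets with 1 gene name, by the root mean square difference of the 4 log2 ratios. *Rassf5*, *Pkib*, *Inpp5k*, *Rab5a* and *Ctsf* came nearest, with differences of 0.13, 0.14, 0.17, 0.18 and 0.19. For *Gstm1* they were *Wdr26*, *Ext1*, *Ccdc92*, *Jmjd6* and *Pdp2*, with differences of 0.071 to 0.093. None of these is in the lists of superfamily, glutathione or Nrf2 genes. The likeness rests on 4 ratios to 1 shared control array.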

How the data were processed

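RNA was measured in 5 pools, 4 under CR and 1 control. The authors deposited MAS5 values, an intensity on a linear scale, after scaling each array to the same trimmed mean; MAS5 is named in the submitters' processing notes (version not given in the sources used here). Mismatch subtraction makes weak values imprecise, and scaling removes differences in total RNA.

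Signals were floored at 0.1 and taken to log2. Of 15923 rows, 57 array controls were left out; the others had 1 annotated gene name (12783), several (312) or none (2771). Those at or above the median mean log2 signal (7933) were tested in limma 3.58.1 (R 4.3.3; eBayes with intensity trend, two-sided, Benjamini-Hochberg over all of them, threshold 0.05, 3 residual degrees of freedom), first CR against control, then a linear trend over the restriction percent. This treats differences between CR levels as spread and takes the lone control to vary as much. Both fits were also run on simulated data in which the control and CR pools had the same spread, so that this cannot show how far the lone control varies. The number of arrays limits the precision.

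Members and lists were chosen with earlier results of these data known. The text names all members, up to 4 genes of each list by the size of the mean ratio, and the 5 genes nearest to *Gsta1* and *Gstm1*; *Gsta5*/*Gsta2*, *Gstm3*, *Gstm5*, *Gstm7*, *Gstt3*, *Gstz1* and *Mgst3* were named after their values were seen. Alternatives covered the normalization (quantile, median), a constant of 13 added to signals, the filter (none, or quantile 0.75), the eBayes trend, the rank of the level, a size of 1, the choice of genes and probe sets, and leaving out each pool.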

Additional observations from a re-analysis of the deposited data

Results flagged for a closer look

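*Mgst2* was set apart by its 10% CR array. Among the 4 CR arrays, its signal there (1429) lay below the others (1545 to 1570), and the gap to the nearest array took 0.833 of the range in log2 signal. The signal was level with that of the control array (1430). The whole range is narrow, and about 1 in 20 groups is set apart in this way by chance; 10 members were examined.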

How the results depend on the processing

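No member passed either fit under any alternative in which it was tested; the stricter filter left out *Gsta1*, *Gstm1* and *Gstm4*, and *Gstt1* was tested only with no filter. Over all probe sets, the comparison with the control gave 0 to 3 calls with a pool left out (3 higher without the 30% CR pool, none of them a member) and 0 otherwise. By size at all levels, 1 member met the rule after quantile normalization and 1 after median centring (*Gsta1* in each), and 0 to 1 with a pool left out (*Gsta1* without the 20%, *Gstm1* without the 5% CR pool), a rule that fewer levels make easier. Of the 36 ratios of single levels, 8 reached 0.5 and 1 reached a size of 1 (*Gsta1* at 30% CR). The difference between alpha and the other classes was 0.12 with all superfamily genes, and 0.057 among the members without *Gsta1* (this choice was made after seeing the data). Averaging probe sets per gene or taking single-name probe sets could not change the difference among the members. Each member has 1 probe set with 1 name in the annotation used here. Of 151 alternatives for single members, 4 turned the sign: the mean ratio of *Gstm2* was 0.013 after quantile normalization and lay between −0.072 and 0.10 with a pool left out, its slope between −0.014 and 0.11, and the slope of *Gstk1* between −0.052 and 0.19. The cause was not tested. No paired analysis was possible because each pool received a single diet and the labels give no replicate numbers. Ratios of weak signals, *Gstt1* above all, have only the array number and the mismatch subtraction behind them.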
